A study of Zea mays with 4 samples.

Results

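Among the pseudouridine (Ψ) sites mapped in maize shoot mRNA, 42 of the 388 listed sites lay in coding sequence, in a gene with no other listed site, directly after a U and directly before a C (UΨC). They were picked by annotation and sequence alone, from the 267 coding sites in genes with a single listed site. The selection rule uses no measured value beyond the list itself, which holds the sites that passed the P value filter of the authors. With genes that hold several sites included, there were 43 such coding sites. The 42 sites fell on all 10 chromosomes (assembly Zm-B73-REFERENCE-NAM-5.0), with 8 on chromosome 5, 7 each on chromosomes 4 and 9, and 2 to 5 on each of the others.

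The samples were shoots of Zea mays, in the study's methods the inbred line B73, and polyA+ RNA was profiled by bisulfite-induced deletion sequencing (BID-seq). The labels list 4 libraries, 2 input libraries and 2 treated libraries, numbered 1 and 2 in each group, with no genotype, drug or time that differs between them. The deposited site list gives a single value per site, summed over replicates by the authors, so no input level and no spread between replicates could be given for any site. The 42 sites were covered by 42101 of the 384014 reads summed over all listed sites, and 2568 of these reads had a gap at the site.

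Ψ is an isomer of uridine in which the base is joined to the sugar through carbon instead of nitrogen, and it is made by pseudouridine synthases after transcription. In BID-seq, bisulfite forms an adduct with Ψ that reverse transcriptase skips, which leaves a gap in the read. The best known Ψ after U and before C is the one in the T-arm of tRNA, whose loop carries the letters UUC behind a G; in yeast it is made by Pus4 and in human cells by TRUB1, which also modifies mRNA sites with the same letters. In coding sequence the letters UUC can be read in frame as a phenylalanine codon.

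The 3 windows that come closest to a tRNA T-arm are shown because the bases on either side of a loop of 7 bases could pair in them. Each sequence is the listed 21-base window, 5′ to 3′ on the strand of the transcript and written with T for U, with the run of U that ends at the site and the C after it in capitals.
LOC100191584: ggctccgggTTCcagtcccgg
LOC100193828: aaaaaaaggTTCaaaaccttt
LOC103639592: catttccggTTCcattccggc

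The next windows show the bases that separate the sites by their calibrated Ψ fraction. LOC100279574 (synonym rbcS), lox10 and LOC100281841 have C before the pair of U and C after the UΨC, LOC100192600 and LOC100279273 sit in longer runs of U, LOC100194217 has C before and G after, and LOC100501512 and LOC100282570 have the lowest fraction and the highest fraction at 50 or more reads.
LOC100279574: ccggacgccTTCcaccgcgtc
lox10: gccggctacTTCcccaaccgg
LOC100281841: ccgctcaccTTCcgcgttggc
LOC100192600: cgtcaaggTTTCcggtgtgtc
LOC100279273: tcgaacaTTTTCcagtacctt
LOC100194217: gagaatgccTTCgcctcctac
LOC100501512: tcaacccggTTCtcctgccca
LOC100282570: ggcccgggcTTCttggcagct

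The last windows are shown because each occurs in a pair of genes, at the same coding position in both.
LOC100194344 and LOC103635488: ctctaccgTTTCttggtcagg
LOC100272992 and LOC103627785: gacttcttcTTCcacgtcgtc
LOC100283176 and LOC103633573: ggcaacggcTTCcgctgcgtc

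The run of U that ended at the site was 2 bases long in 36 of the 42 sites (85.7%, Wilson 95% interval 72.2 to 93.3), 3 bases in 5 and 4 bases in 1, LOC100279273. A run of at least 2 is fixed by how the sites were chosen. Because a gap within a run of identical bases can be aligned to any base of the run, the reads alone do not show which U of the pair carried the Ψ. None of the 388 listed sites has a U directly after it, so the list places every gap at the last U of its run. The codon positions below hold for that placement.

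Outside the fixed letters, the bases were unevenly used. The base before the pair of U was C in 18 sites, G in 18, U in 6 and A in 0 of 42, where the Wilson interval reaches 8.38%. The base after the C was C in 28 sites (66.7%, 51.6 to 79.0), G in 7, U in 5 and A in 2. The neighbours were combined unevenly as well, since all 7 sites with G after the C had C before the pair of U, while the 18 sites with G before had C after in 14, A in 2, U in 2 and G in none. Elsewhere in the windows of the 267 coding sites there were 31 unlisted UUC triplets with both neighbours in view, and C followed 8 of them (25.8%, 13.7 to 43.2) while A preceded 5. The interval of the share with C after the triplet did not overlap that of the listed sites. These triplets are not all independent, because the window shared by LOC100272992 and LOC103627785 was counted in both genes. In that window, the triplet next to the site is followed by the U that the selection fixes. At the 225 other coding sites, the base 2 after the Ψ was C in 20.9% (16.1 to 26.7). Among them, sites with U before and G after the Ψ had 48.6% (33.4 to 64.1), and this interval overlapped that of the UΨC sites. The share was 7.78% with C on both sides, 13.8% with G on both sides and 35.0% with any other flanks. The 18 bases outside the middle 3 had a median GC content of 72.2% (range 22.2 to 83.3), beside 66.7% at the 225 other coding sites. Sites with G on both sides had the same median of 72.2%, and those with C on both sides had 61.1%.

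By codon, the listed U was the second base in 33 of 42 sites (78.6%, 64.1 to 88.3), the first base in 5 and the third base in 4. A site in the second base is by construction in a UUC codon, so 33 sites were in phenylalanine codons, and a UUU codon in LOC100279273 made 34. The 5 sites in the first base were in serine codons, UCC in 4 and UCU in LOC100281308. The third-base codons were GUU for valine in LOC100127534 and LOC100501512, CUU for leucine in LOC100282570 and the UUU of LOC100279273. A similar frame was seen for UUC triplets that were not listed: 35 of 43 in the windows of the coding sites (81.4%, 67.4 to 90.3) had their middle base in the second codon position.

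The sites lay at a median coding position of 453.5 (range 35 to 2303), which is a median residue of 151.5 (12 to 768). There were 11 sites in residues 1 to 100, 23 from there to residue 300 and 8 beyond. The closest to the start codon was residue 12 of LOC100275075, and the farthest was residue 768 of lox10, which encodes a lipoxygenase, an enzyme that oxygenates polyunsaturated fatty acids.

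The listed distance to a splice junction, whose sign is not defined in the sources used here, had a median size of 184.5 bases (range 7 to 1107), and the order-statistic interval of this median ran from 112 to 285. The other 225 coding sites had a median of 100 (82 to 128), with overlapping intervals. By flanking bases, their medians ran from 52 with U before and G after to 147.5 with G on both sides. Within 10 bases there were 3 sites (7.14%), beside 5.33% of the others. LOC111258510 was listed at 7 bases, and its window is the only one of the 42 that differed from the window listed for the transcript. LOC100194344 and LOC103635488, which share a window, were both listed at 10 bases.

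The depth, meaning the summed reads at a site, had a median of 679 (order-statistic 95% interval 381 to 873) and ran from 14 reads in LOC103639592 to 7284 in LOC100194217. The gap ratio, the share of those reads with a gap, had a median of 7.06% (5.81 to 8.92) and ran from 3.14% in LOC100279574 to 35.7% in LOC103639592. Its precision followed the depth: the Wilson interval had a median half-width of 2.01 percentage points, from 0.434 in LOC100194217 to 22.4 in LOC103639592. These intervals cover counting error only, since reads after amplification are not independent molecules. Of the 861 pairs that can be formed from the 42 sites, 353 had intervals that did not overlap.

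Deep sites had low gap ratios. The Spearman correlation of depth with gap ratio over the 42 sites was -0.78, and it was -0.75 over the 40 sites with at least 50 reads. The median gap ratio was 19.3% in the 7 sites under 200 reads, 7.71% in the 17 sites with 200 to under 800 reads and 5.33% in the 18 sites with 800 or more. The same order was seen at the 225 other coding sites, with a correlation of -0.85. Depth enters the gap ratio as its denominator, and the filter of the authors removed sites by a P value whose threshold at each depth is not stated; the part of that filter in the relation was not tested. LOC100191584 stood apart, with 360 gapped of 1673 reads, and its interval of 19.6 to 23.6% lay above those of the other 17 sites with 800 or more reads, of which the highest, LOC100502394, had 7.99% (6.34 to 10.0). The highest gap ratio among the 73 other coding sites of that depth was 10.2%. Below that depth the ratio of LOC100191584 was exceeded, as 1 site with U before and G after had 46.5% (42.4 to 50.6) from 566 reads.

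**Figure D1:**
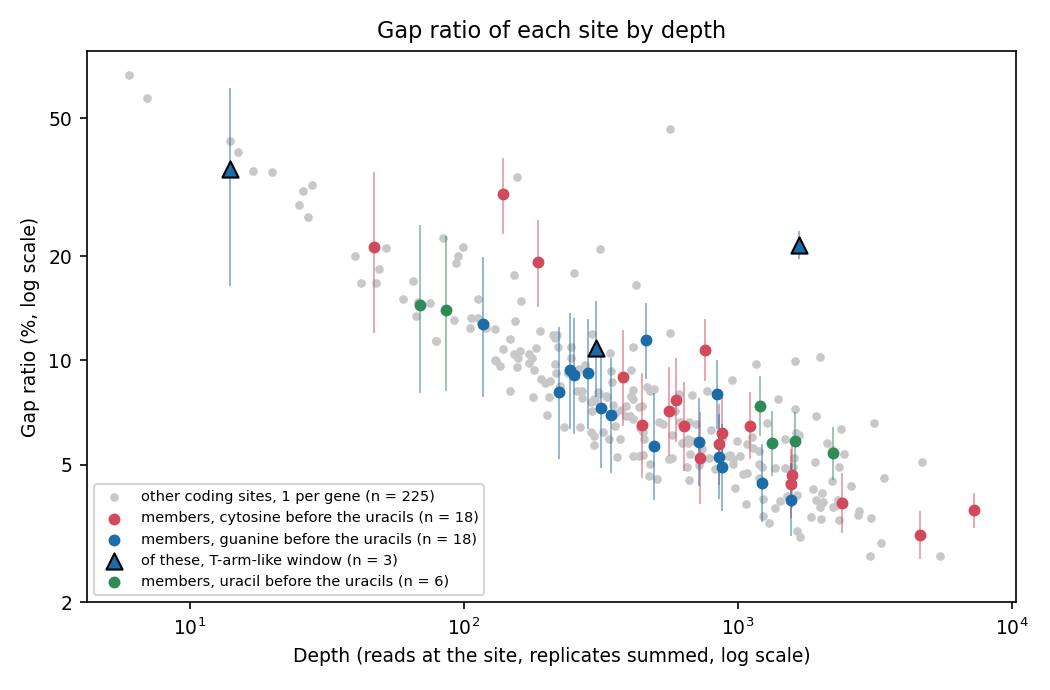
Gap ratio (%) against depth (summed reads), both on log scales, for the 42 UΨC sites (coloured by the base before the pair of U, bars are Wilson 95% intervals) and the 225 other coding sites in genes with 1 site (grey, no bars). Gap ratios fall with depth in both sets, and the triangle at 1673 reads, LOC100191584, lies at 21.5%, above all other sites with 800 or more reads.

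A Ψ fraction, the estimated share of transcripts that carry Ψ, had been derived by the authors from each gap ratio with a calibration curve. The fraction had a median of 31.0% (27.2 to 43.4) and ran from 13.2% in LOC100501512 to 81.1% in LOC103637908, the latter from 10 gapped of 47 reads. There were 7 sites under 20% (16.7%, 8.32 to 30.6), 25 from 20 to 50% (59.5%) and 10 over 50% (23.8%, 13.5 to 38.5). Of the 35 sites with at least 200 reads, 11.4% were over 50%. No interval is given for single fractions, because the error of the calibration is unknown here.

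The fraction varied with the 5-base context as well as with the gap ratio. In CUΨCC (10 sites) the fraction was a median of 7.76 times the gap ratio, and in UUΨCC (4 sites) 6.14 times, but in GUΨCC (14 sites) it was 3.36 times and in CUΨCG (7 sites) 3.70 times. Within each of these 4 contexts the order of the sites by fraction was the same as their order by gap ratio. The 14 sites in CUΨCC or UUΨCC had a median gap ratio of 6.31% (5.24 to 13.95) and a median fraction of 49.0% (41.3 to 67.5), and 12 of them reached 40%. The other 28 sites had a gap ratio of 7.33% (5.77 to 9.19) and a fraction of 25.8% (20.7 to 31.0), and 4 reached 40%. The intervals of the median gap ratios of the 2 sets overlapped, while those of their median fractions did not. This split was not planned, and it joined the 2 contexts with the largest multiples of the gap ratio. A difference in fraction at like gap ratios is therefore built into the split and was not tested.

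The conversion separated sites whose gap ratios were alike. Of the 8 sites with a gap ratio between 5 and 6%, the 4 in CUΨCC or UUΨCC had fractions from 41.3 to 46.2%, and the 4 in other contexts had 17.3 to 23.5%. LOC100279574 and LOC100194217 show it in a deep pair. LOC100279574, annotated with the synonym rbcS for the small subunit of Rubisco, the enzyme that fixes CO2, had 145 gapped of 4620 reads, a gap ratio of 3.14% (2.67 to 3.68) and a fraction of 29.7%. LOC100194217 (synonym RAB15) had 269 gapped of 7284 reads, a gap ratio of 3.69% (3.28 to 4.15) and a fraction of 14.6%. The site with the lower gap ratio therefore had the higher fraction, and the intervals of the gap ratios overlapped.

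**Figure D2:**
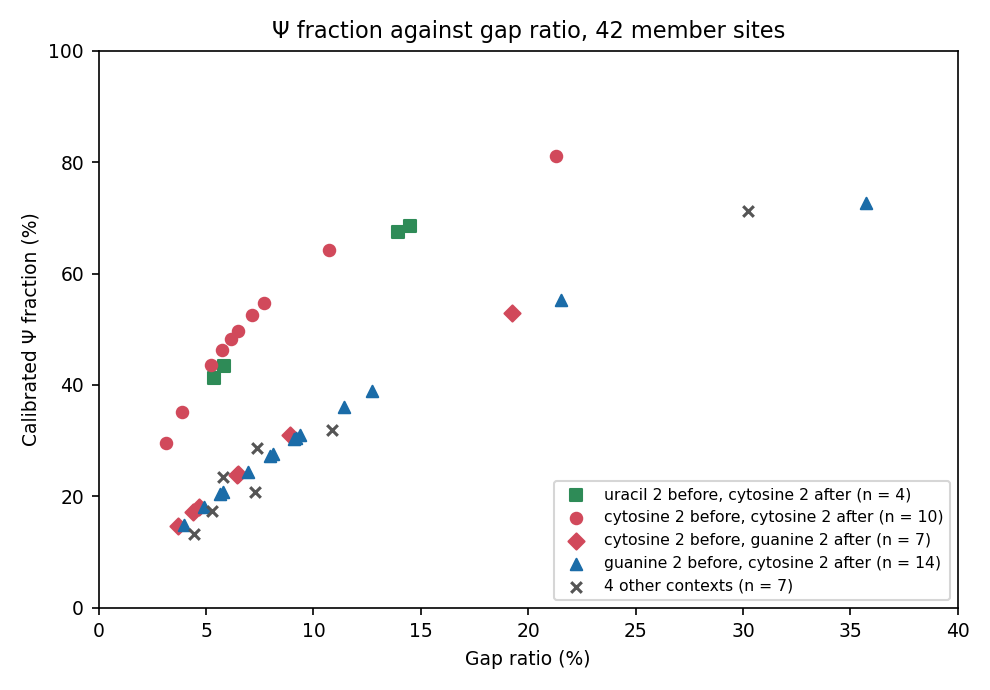
Calibrated Ψ fraction (%) against gap ratio (%) for the 42 sites, 1 point per site, with symbols for the bases 2 before and 2 after the Ψ. Sites with C or U before the pair of U and C after the UΨC form an upper band, so that gap ratios between 5 and 6% correspond to fractions of 41.3 to 46.2% there and of 17.3 to 23.5% in the other contexts.

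Compared with the pooled rest of the coding sites, the UΨC sites had a higher median fraction at a gap ratio whose interval overlapped theirs. The median gap ratio of the 225 others was 7.20% (6.55 to 7.88), a difference of -0.14 percentage points for the UΨC sites minus the others, and the sign of this difference turned under 3 of the alternative selections. The median fraction of the others was 24.4% (22.8 to 26.2), 6.59 percentage points lower than in the 42 sites, and 8.44% of the others were over 50%. Sites with C on both sides (90) had a median fraction of 24.1% (20.4 to 26.4), those with G on both sides (58) 19.02% (16.6 to 23.6) and those with U before and G after (37) 26.6% (22.1 to 32.8). The 40 sites with any other flanks had 30.4% (24.4 to 44.8), close to the UΨC sites, at a median gap ratio of 6.66% (5.84 to 7.83). Of these 40 sites, 10 (25.0%, 14.2 to 40.2) were over 50%, so a high fraction was not particular to UΨC. The interval of the UΨC sites, 27.2 to 43.4%, lay above those of the classes with C or with G on both sides and overlapped the remaining ones. The fraction was a median of 3.70 times the gap ratio in the 42 sites, 3.04 times in the 225 others and 4.04 times in the 40 with other flanks. The 28 UΨC sites outside CUΨCC and UUΨCC had, at 25.8%, a median fraction whose interval overlapped that of the other coding sites. This value rests on the same unplanned split by context. Sites are not replicates of a condition, so these values describe the list and no test was made on them.

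**Figure D3:**
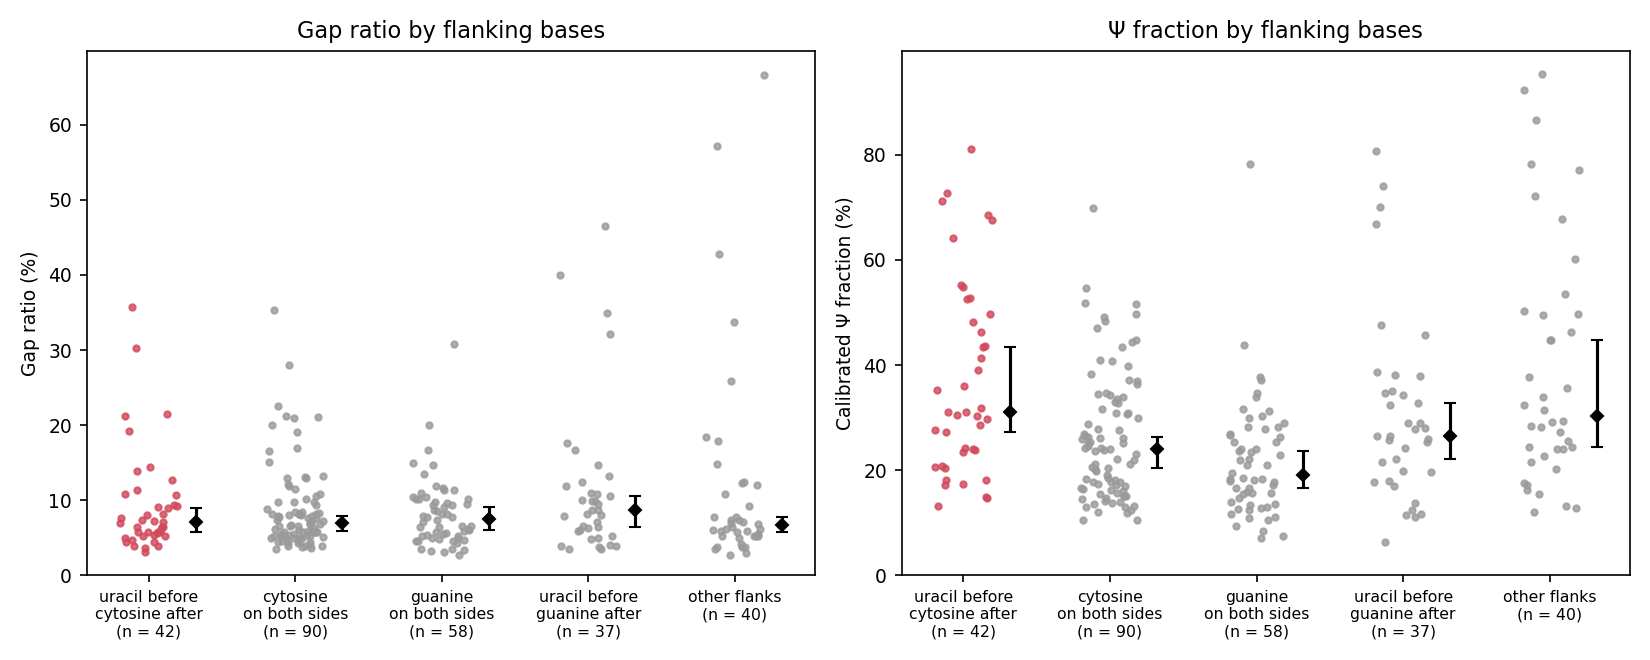
Gap ratio (%, left) and calibrated Ψ fraction (%, right) of coding sites in genes with 1 site, by the bases on either side of the Ψ, 1 point per site; diamonds are medians and bars their order-statistic 95% intervals. The medians of the gap ratio lie between 6.66 and 8.65% with overlapping bars, while the median fraction is 31.0% in the 42 UΨC sites, 30.4% in the 40 sites with other flanks and 19.02 to 26.6% in the remaining classes.

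The sites were also compared within ranges of depth. Under 200 reads the median gap ratio was 19.3% (12.7 to 35.7) in 7 UΨC sites and 13.3% (12.2 to 16.7) in 57 others, and the median fraction was 68.5% (39.0 to 81.1) and 37.7% (33.8 to 47.1), both with overlapping intervals. With 200 to under 800 reads the median fraction was 30.5% in 17 UΨC sites and 24.1% in 95 others, at gap ratios of 7.71% and 7.38%. With 800 or more reads it was 28.0% (17.3 to 43.4) in 18 UΨC sites and 15.1% (13.8 to 17.7) in 73 others, at gap ratios of 5.33% and 4.89%. The intervals of the latter fractions overlapped only between 17.3 and 17.7%. By flanking bases, the others of that depth had 15.6% (14.1 to 18.3) with C on both sides and 12.7% (10.5 to 18.3) with G on both sides. They had 13.2% (11.1 to 26.4) with U before and G after and 20.2% (12.9 to 31.4) with any other flanks. Each of these intervals overlapped that of the UΨC sites. Under 200 reads the sites with any other flanks had 72.2% (37.8 to 92.3).

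The G before UUC that the tRNA enzymes use in yeast and human was present in 18 of the 42 sites (42.9%, 29.1 to 57.8), and G stood before 13 of the 31 unlisted UUC triplets (41.9%, 26.4 to 59.2), nearly the same share. Over all 388 listed sites the letters GUUC stood around the site in 27 (6.96%). The longer form of the core, GUUCNANNC, read on the transcript strand with the site at the second U, was present in 3 of the 42 sites (7.14%, 2.46 to 19.01) and in 8 (2.06%) of all listed sites. All 8 were among the 56 listed sites after U and before C in any gene region (14.3%, 7.42 to 25.7). The 42 coding sites are part of these 56 and had the lower share, so the rest of the 56 had a higher one. The 2 intervals are not compared, because they come from a part and its whole. The 225 other coding sites cannot hold either form, because both need U before and C after the site. The 3 sites with the longer form were also the only ones of the 42 with 4 or more stacked pairs around the loop of 7 bases, while 8 of the other 225 (3.56%) had such pairs. The longer form itself sets the G and the C that close this loop, so the overlap of the 2 features is partly built in. Matching letters and possible pairs describe the windows and do not show which enzyme acted or that a stem formed.

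LOC100191584 had the deepest of these 3 windows. Its window, chr5:55917467-55917487, is read from the minus strand, with the site at base 55917477 in a phenylalanine codon at residue 62. The gap ratio was 21.5% (19.6 to 23.6), the fraction 55.3%, and all 5 pairs that fit into the window could form. The depth was not out of proportion to the level of the gene, with 4.53 reads per TPM beside a median of 4.55 over the 42 sites. LOC100193828 (chr4:181908740-181908760, minus strand, residue 164) also had 5 possible pairs, with 33 gapped of 304 reads, a gap ratio of 10.9% (7.83 to 14.9) and a fraction of 31.9%. LOC103639592 (chr9:159911395-159911415, minus strand, a serine codon at residue 362) had 4 possible pairs and only 5 gapped of 14 reads, so that its gap ratio of 35.7% had an interval of 16.3 to 61.2%. Without these 3 sites the median gap ratio of the rest was 6.50% (5.74 to 8.11).

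The other 15 sites with G before the pair of U had gap ratios between 3.96 and 12.7%. The highest were LOC100285225, with 12.7% from 118 reads, and LOC100284288, with 11.4% (8.84 to 14.6) from 464 reads. LOC103639537, LOC100283324, LOC103639428, LOC103650490 and LOC100502394 followed between 7.99 and 9.39%. LOC100281308, LOC100283273, LOC100282706, LOC103641120 and LOC100275075 lay between 5.28 and 7.28%. The lowest were LOC100127534 with 4.93%, LOC100501512 with 4.42% and LOC100147735 with 3.96%, all with more than 800 reads. LOC100147735 carries the synonym FtsH2B, a member of the FtsH proteases that turn over photosystem proteins in the chloroplast, and its fraction was 14.8%. The 18 sites with G before had a median gap ratio of 8.05% (5.67 to 10.9), and the 18 sites with C before had 6.47% (4.68 to 8.92), so their intervals overlapped. Their median fractions were 27.4% (20.4 to 31.9) and 44.9% (24.0 to 52.8), also with overlapping intervals. Of the sites with C before, the 10 in CUΨCC had a median fraction of 49.0% and the 7 in CUΨCG had 23.9%. The 14 sites in GUΨCC had 28.9%.

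LOC100282570 had the highest fraction of those with 50 reads or more, with 42 gapped of 139 reads, a gap ratio of 30.2% (23.2 to 38.3) and a fraction of 71.3%. LOC100279273, in the run of 4 U, had 10 gapped of 69 reads and a fraction of 68.5%, and LOC103643236, in a run of 3 U, had 12 gapped of 86 reads and 67.5%. Both rest on few reads, and their gap ratios of 14.5% (8.07 to 24.7) and 13.95% (8.17 to 22.8) cannot be told apart. LOC100281841 reached 64.1% with 81 gapped of 756 reads, a gap ratio of 10.7% (8.70 to 13.1). LOC100191584, described above, was next. Only LOC100281841 and LOC100191584 of these 5 had more than 200 reads.

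The 6 sites in runs of 3 or 4 U had a median gap ratio of 6.61% (range 5.38 to 14.5), beside 7.06% (3.14 to 35.7) in the 36 sites in runs of 2. Their fractions had medians of 42.3% and 30.7%, with overlapping order-statistic intervals of 23.5 to 68.5% and 24.0 to 43.6%. Of the 6 sites, the 4 in UUΨCC had a median fraction of 55.5% and the 2 in UUΨCU had 26.1%. The part of the context in the difference between run lengths was not tested. The deepest of the longer runs was in LOC100192600, with 120 gapped of 2229 reads, a gap ratio of 5.38% (4.52 to 6.40) and a fraction of 41.3%.

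Several of the remaining sites lay in genes whose name gives a role. The site in lox10 had 93 gapped of 2396 reads, a gap ratio of 3.88% (3.18 to 4.73) and a fraction of 35.2%. LOC541983 (synonym mpao1), a polyamine oxidase, had 74 gapped of 1581 reads and a fraction of 18.1%. LOC606484 (synonym dxs1), the enzyme that opens the plastid pathway to isoprenoids, had 34 gapped of 381 reads, a gap ratio of 8.92% (6.46 to 12.2) and a fraction of 31.0%. The gap ratio of LOC606484 was above that of lox10 beyond counting error, while lox10, whose context is CUΨCC, had the higher fraction. These genes were singled out for their names, after the values had been seen.

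The 3 pairs of genes with identical windows gave a comparison at a fixed sequence context. LOC100194344 had a gap ratio of 5.77% (4.64 to 7.15) and LOC103635488 7.39% (6.04 to 9.002), both at coding position 104. LOC100272992 had 7.16% (5.30 to 9.60) and LOC103627785 7.71% (5.83 to 10.1), both at position 395. LOC100283176 had 6.47% (5.17 to 8.08) and LOC103633573 6.15% (4.74 to 7.94), both at position 464. The intervals overlapped in all 3 pairs, with differences of at most 1.62 percentage points. How reads that fit both copies were assigned is not stated, so the members of a pair may share reads and their values are uncertain.

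Each of the 42 sites lay inside exactly 1 gene model of the deposited expression table on its strand. The level of these genes, in length-scaled transcript units that sum to a fixed total per column (TPM) and averaged over the 2 deposited columns, had a median of 134 TPM (100.2 to 238) and ran from 4.43 TPM in LOC103639592 to 2039 TPM in LOC100194217. The median was 98.9 TPM in the genes of 221 other coding sites that could be matched and 3.06 TPM over all 44303 genes of the table. In the top 10% of all genes there were 33 of the 42 (78.6%, 64.1 to 88.3), beside 73.3% (67.1 to 78.7) of the others. A site can be listed only where reads cover it, so a level above that of all genes is partly built in. The columns of replicates 1 and 2 differed by at most 1.09-fold in any of the 42 genes.

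There were 4 genes above 500 TPM in the mean of both columns. LOC100194217 was listed with 1999 TPM in replicate 1 and 2079 TPM in replicate 2. LOC100279574 had 1387 and 1429 TPM, lox10 had 641 and 658 TPM, and LOC541983 had 511 and 526 TPM. At the other end, LOC103639592 had 4.31 and 4.55 TPM, and LOC103637908 had 9.36 and 9.33 TPM. The gene with the next lowest level, LOC100279273, had 12.01 and 12.4 TPM.

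Depth at the site followed the level of the gene closely, with a Spearman correlation of 0.96 over the 42 sites and a median of 4.55 reads per TPM (range 2.42 to 7.28). The gap ratio had a correlation of -0.79 with the level. The 21 sites in genes at or above the member median had a median gap ratio of 5.38% (4.42 to 6.46) and the other 21 had 9.39% (7.28 to 13.95), but their median fractions were 28.7% (18.1 to 43.6) and 31.9% (27.6 to 64.1), with overlapping intervals. Whether the gap ratio follows the level or the depth cannot be told apart, because both move together.

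**Figure D4:**
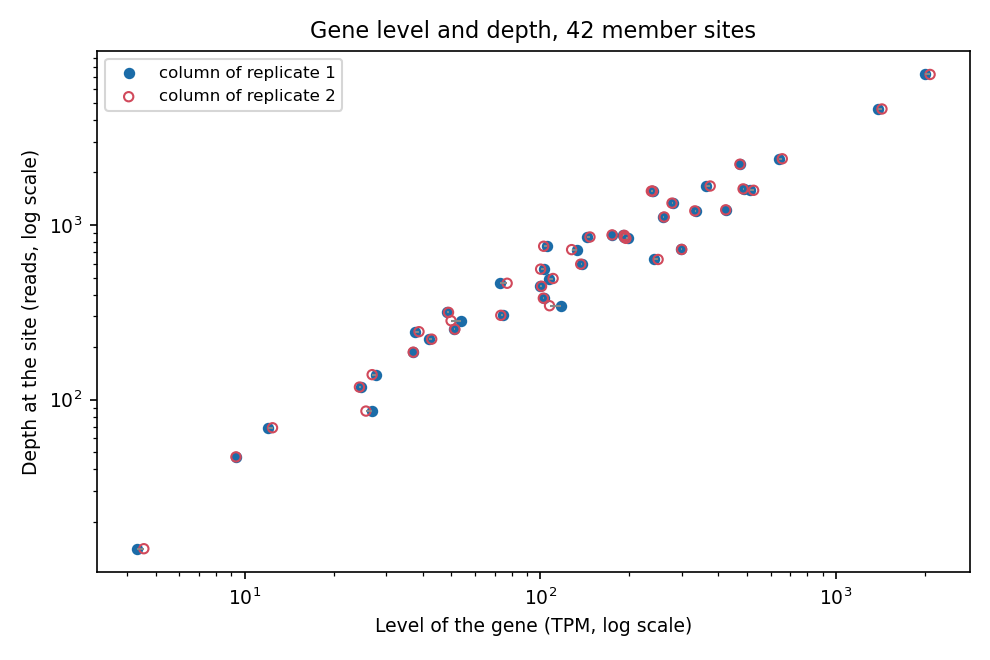
Depth at the site (summed reads) against the level of its gene (TPM), both on log scales, for the 42 UΨC sites; filled and open points are the columns of replicates 1 and 2, joined by a line. Depth rises with the level from 14 reads at about 4.43 TPM to 7284 reads at about 2039 TPM, and the columns of a gene lie close together.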

How the data were processed

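RNA of B73 maize shoots was treated or left as input, and sites were called by the authors with the pseudoU-BIDseq pipeline against Zm-B73-REFERENCE-NAM 5.0. The deposited depth is a read count per site, summed by the authors over replicates. Whether input reads are in it is not stated. The deposited gap ratio is the authors' share of gapped reads, and the deposited Ψ fraction is their calibrated stoichiometry. A deposited pass score of 1 or 2, without a definition, was used only to split the list. The deposited TPM columns were scaled by the authors to gene length and a common total. Their names fit the input and treated library of a replicate equally, so the library type is unknown. Library totals are not given in the sources used here.

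From these, the gapped reads were computed as depth times gap ratio, which came within 0.00244 of a whole number. Ratios carry Wilson intervals and medians order-statistic intervals, both at the 95% level and computed over sites. Sites were matched to gene models by chromosome, strand and position, and symbols to the RefSeq table of the same assembly. Stacked pairs (Watson-Crick or G-U) were counted outward from bases 9 and 17 of the window. Python 3.11.15, pandas 2.3.3, numpy 2.4.6, scipy 1.17.1 and matplotlib 3.10.9 were used, and the scripts were tested on simulated data.

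The sites and lists were chosen with earlier results of these data known. Sites were named if they were among the 5 of highest fraction at 50 or more reads or the 5 deepest, had G before the pair of U, a run of 4 or more U, a junction within 10 bases, the highest or lowest TPM, or under 20 reads. A few more were named outside these rules, for a window shared by a pair of genes, a role given by the gene name, or an extreme value. Groups by gene function, and levels of pseudouridine synthase genes, were not analysed here, since the table used holds no product descriptions. Alternatives were depth minimums of 50 and 200 reads, the pass score, genes with several sites, means, and classes set by gap ratio.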

Additional observations from a re-analysis of the deposited data

How the results depend on the processing

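Of the planned recalculations, 52 stayed within the interval of the reported value with no change of sign, and 9 moved outside it. Another 3 turned the sign of a difference but lay within its interval of -1.39 to 1.72 percentage points. The difference in median gap ratio between the UΨC sites and the other coding sites was -0.14 percentage points and became 0.43 with at least 200 reads, 0.31 with a pass score of 2 and 0.37 with several-site genes included; the cause was not tested. The difference in median fraction stayed between 6.24 and 17.5 points. The mean gap ratio was 9.40%. With a pass score of 2 (14 sites) the median depth was 975.5 reads, 7.14% of sites were under a fraction of 20%, 71.4% were in runs of 2 U and 28.6% had G before the pair of U. At 200 or more reads, 11.4% were over 50%. Classed by gap ratio instead of fraction, 90.5% of sites were under 20%, 9.52% from 20 to 50% and 0% over 50%, which follows from the smaller values. The 28 recalculations added after seeing the data, with 1 site per window or without the 3 paired windows, all stayed within range. No paired analysis was possible because each site has only a single value summed over replicates; leaving out replicate 1 or replicate 2, and a replicate block, were therefore not run. Depth limits the sites under 50 reads most, where the Wilson half-width reached 22.4 percentage points.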
